A study of Mus musculus with 6 samples.

Results

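The enteroendocrine transcription factors are a group of 9 genes, Neurog3, Neurod1, Isl1, Pax4, Pax6, Nkx2-2, Insm1, Fev and Rfx6, whose products direct the formation of hormone-secreting cells in the gut. They were taken by gene symbol from the 32285 genes of the count tables, and 8 of the 9 had at least 1 UMI (unique molecular identifier, which marks a single captured transcript molecule). Only Neurod1 had none in any library. The 8 genes were followed in single epithelial cells of mouse ileal crypts, across cell classes, in pairs within a cell and between mouse genotypes.

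Enteroendocrine (EE) cells arise from crypt progenitors that escape Notch signalling. Neurog3, a basic helix-loop-helix factor, is switched on briefly in progenitors and commits them to the EE fate, and Neurod1 belongs to the same family and acts after it. Insm1 (a zinc finger factor), Nkx2-2 and Pax4 and Pax6 (homeodomain factors) and Rfx6 (a winged helix factor) act downstream. Isl1 is a LIM homeodomain factor known from cells that make peptide hormones, and Fev (Pet1), an ETS factor, is best known from serotonergic neurons. The serotonin-making EE cells of the gut are called enterochromaffin cells.

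Crypts came from the ileum, and epithelial cells had been sorted by the surface protein EpCAM and then sequenced cell by cell in droplets (MobiNova-100). There were 3 libraries from Fpr2f/f mice, in which Fpr2 is flanked by loxP sites and left in place (genotype label WT), and 3 from Fpr2VKO mice, in which Cre under the Villin promoter was meant to delete Fpr2 throughout the intestinal epithelium. Fpr2 encodes a receptor for formyl peptides. Per the study's methods the Fpr2f/f line was on the C57BL/6J background, and the mice were matched by sex and age and were 8 to 12 weeks old. The labels name no treatment. Fpr2 had 0 UMIs in every barcode of every library, so the genotype labels could not be checked from these data. In the GENCODE annotation of GRCm38 Fpr2 (chr17:17887824-17893952) overlapped Fpr3 (chr17:17887852-17971677, 458 UMIs) on the same strand. The 0 can therefore not be read as absence of Fpr2 transcripts. The p-values below set the difference between the labelled groups against the spread between these libraries.

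The libraries held 90142126 to 189516114 UMIs. Barcodes with at least 1000 UMIs, 500 detected genes and at most 20% mitochondrial UMIs were kept, which gave 1868 to 4722 per library and 17104 in all. The mitochondrial limit removed 65.7 to 90.1% of the barcodes that had passed the other limits. By column number in the count matrices, 123 of 16980 distinct barcodes were kept in more than 1 library, and their sequences were not compared. Levels are given as CPM, the UMIs of a gene scaled to 1000000 UMIs in the cells summed. Epcam stood at 1174 to 1358 CPM in the 6 libraries, whereas the summed level of 5 fibroblast markers was at most 0.879. Immune cells remained, as 10 immune markers summed to 385 to 521 CPM in Fpr2f/f and 220 to 1057 in Fpr2VKO libraries (highest in replicate 1) and 294 cells were immune-like. The median UMI count of kept cells was 3033 to 4612 in Fpr2f/f and 6358 to 6728.5 in Fpr2VKO libraries, which did not overlap. Fpr2f/f replicate 1 stood apart from the other control libraries in the members' values, and results that rest on it are given with and without it. Fpr2VKO replicate 1 was likewise the highest library of its genotype for each of the 8 measured members in the sums of all cells.

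Promoter windows of 300 bases, from 250 before to 50 after the annotated start, were taken from RefSeq (GRCm38.p6) and were matched for 7 of the 9 genes, not for Pax4 or Insm1. The 4 windows below are those of Neurog3, Isl1 and Fev, whose levels differed between the cell clusters described below, and of Nkx2-2, which held the most matches to the letters searched. They lie at Neurog3 (chr10:62132840-62133139, plus strand), Nkx2-2 (chr2:147186353-147186652, minus strand), Isl1 (chr13:116309639-116309938, minus strand) and Fev (chr1:74885359-74885658, minus strand). Capitals mark the E-box letters CANNTG, which read the same on both strands and are the core of sites bound by basic helix-loop-helix factors such as Neurog3 and Neurod1.
Neurog3: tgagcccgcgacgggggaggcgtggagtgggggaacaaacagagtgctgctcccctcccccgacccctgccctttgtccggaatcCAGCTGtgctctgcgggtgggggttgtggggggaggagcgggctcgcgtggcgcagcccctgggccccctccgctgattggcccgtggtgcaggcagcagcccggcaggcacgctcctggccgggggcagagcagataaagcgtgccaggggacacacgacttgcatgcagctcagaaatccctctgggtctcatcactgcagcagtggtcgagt
Nkx2-2: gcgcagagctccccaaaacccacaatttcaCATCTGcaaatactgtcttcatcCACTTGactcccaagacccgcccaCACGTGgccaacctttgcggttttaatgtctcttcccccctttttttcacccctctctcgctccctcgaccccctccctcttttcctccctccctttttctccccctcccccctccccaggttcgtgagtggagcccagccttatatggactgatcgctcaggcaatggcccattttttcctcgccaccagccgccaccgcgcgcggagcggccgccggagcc
Isl1: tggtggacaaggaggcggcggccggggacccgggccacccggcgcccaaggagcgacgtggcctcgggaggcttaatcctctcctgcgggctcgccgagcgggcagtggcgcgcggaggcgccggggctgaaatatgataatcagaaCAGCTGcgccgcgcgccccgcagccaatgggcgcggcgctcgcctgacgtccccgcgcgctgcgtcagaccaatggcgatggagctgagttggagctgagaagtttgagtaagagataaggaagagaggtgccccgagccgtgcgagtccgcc
Fev: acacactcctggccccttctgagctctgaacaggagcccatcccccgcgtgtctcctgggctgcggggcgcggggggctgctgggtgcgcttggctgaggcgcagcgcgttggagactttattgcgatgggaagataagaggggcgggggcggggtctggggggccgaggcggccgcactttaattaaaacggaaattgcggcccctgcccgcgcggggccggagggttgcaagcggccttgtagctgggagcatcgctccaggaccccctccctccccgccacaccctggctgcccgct
The Nkx2-2 window held 3 E-boxes, which did not overlap, the Neurog3 and Isl1 windows held 1 each, and the Fev window held 0. Such letters are common, as 72.3% of the 32851 windows of this length had at least 1. The narrower form CAGATG, searched on both strands, was present in 17.2% of all windows and, of the 8 windows of members, in that of Nkx2-2 alone. The windows of Neurod1 and Rfx6 held 1 E-box each and the 2 windows of Pax6 held 0 and 1. These matches describe letters only, and binding was not measured.

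Neurod1 could not be followed. It had 0 UMIs in all barcodes, cells and debris alike, although the other 8 genes had between 1135 (Pax4) and 13656 (Insm1). In the GENCODE annotation of GRCm38 the gene, chr2:79452521-79456751 on the minus strand, lay wholly inside Cerkl, chr2:79330543-79456785, on the same strand, and 201 of its exonic bases were also exonic in Cerkl. Cerkl is a relative of ceramide kinase. Of 251 protein-coding genes that lay wholly inside another protein-coding gene on the same strand, 248 (98.8%) had 0 UMIs in all libraries, against 1.76% of the other 21374. The annotation the authors counted with was not given in the sources used here, so the 0 cannot be read as absence of Neurod1 transcripts.

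Cerkl itself had 906 UMIs in kept cells, and 87.1% of them fell in the 3 clusters described next. After thinning each cell to 3000 UMIs, 69 of the 276 cells of the largest EE-like cluster had a Cerkl UMI, compared with 1.10% of all thinned cells. Whether reads of Neurod1 contributed to these counts was not tested. In the same annotation the other genes lay at chr10:62133090-62134763 (Neurog3, plus), chr13:116298281-116309689 (Isl1, minus), chr6:28442334-28449353 (Pax4, minus), chr2:105668900-105697364 (Pax6, plus), chr2:147177546-147194243 (Nkx2-2, minus), chr2:146221921-146225020 (Insm1, plus), chr1:74881509-74885419 (Fev, minus) and chr10:51677756-51730432 (Rfx6, plus). Neurog3 lay within Fam241b on the opposite strand with 273 shared exonic bases, and Nkx2-2 overlapped the antisense gene Nkx2-2os with 278. Whether counting used strand was not given in the sources used here, so these pairs may share reads.

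Cells were grouped into 25 clusters with the 9 genes left out of the variable genes used for clustering, and clusters were named from marker lists. EE-like cells formed 2 clusters. The larger one had 314 cells and was led by Chgb, Tac1, Chga and Tph1, the last of which encodes the rate-limiting enzyme of serotonin synthesis outside the brain. The smaller one had 134 cells and was led by the peptide hormone genes Gcg, Cck, Gip and Pyy. They are called the Tph1/Tac1 cluster and the Gcg/Cck cluster below. Another cluster of 178 cells scored highest for the secretory progenitor markers (4 of 6 detected), but its leading genes were the hormone gene Ghrl and members such as Neurog3, Insm1, Isl1 and Nkx2-2, with Sox4 the only such marker among the first 10. It is therefore called the Ghrl/Neurog3 cluster, and at the lower cluster resolution its cells fell among the EE-like ones. These clusters held cells of all 6 libraries, and they had 14 to 84 cells per library.

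The 8 measured factors were almost confined to these 3 clusters. The clusters made up 626 of 17104 cells (3.66%) and 3.68% of the UMIs, but they held between 92.5% (Pax4) and 97.4% (Isl1) of the UMIs of each factor. Insm1 had 7797 UMIs in 707 kept cells, Neurog3 4619 in 398, Rfx6 3859 in 654, Isl1 3339 in 301, Nkx2-2 3149 in 662, Fev 2203 in 430, Pax6 1648 in 400 and Pax4 549 in 229. In the other 8 classes the mean level of any factor reached at most 3.26 CPM, and at equal depth between 0 and 1.2% of cells had a UMI. Barcodes with fewer than 100 UMIs, which hold free RNA rather than cells, carried the factors at 1.73 to 16.6 CPM.

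**Figure D1:**
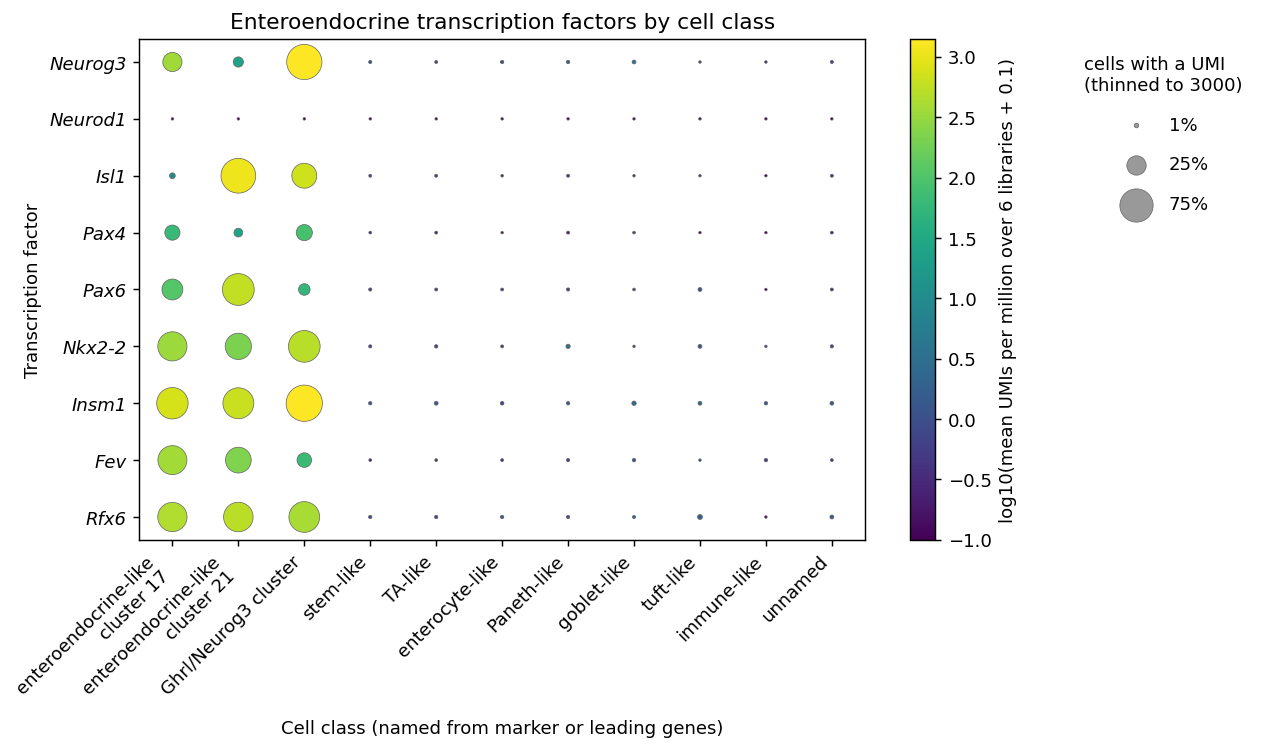
Levels of the 9 transcription factors (rows) in each cell class (columns). Colour shows the mean CPM over the 6 libraries on a log10 scale and point area rises with the share of cells with a UMI after thinning to 3000 UMIs per cell. Enteroendocrine-like cluster 17 is the Tph1/Tac1 cluster and cluster 21 the Gcg/Cck cluster. Large points fall only in the 3 columns at the left, Isl1 is nearly missing from cluster 17 (1.81% of cells), and Neurod1 is at 0 in all columns.

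Neurog3 was highest in the Ghrl/Neurog3 cluster, of which it was a leading gene. Its level there was 1029, 2437 and 1419 CPM in Fpr2f/f replicates 1 to 3 and 1205, 968 and 1043 in Fpr2VKO replicates 1 to 3. In the Tph1/Tac1 cluster it was 187, 302, 739, 384, 265 and 246 in the same order. The lowest library of that cluster was therefore above the highest library of the Tph1/Tac1 cluster, and the Gcg/Cck cluster was lower still, from 0 to 94.1. At equal depth 84.0% of 150 cells of the Ghrl/Neurog3 cluster had a Neurog3 UMI (95% exact Clopper-Pearson interval, 77.1 to 89.5%), compared with 24.6% of the Tph1/Tac1 cluster (19.7 to 30.2%), 6.67% of the Gcg/Cck cluster (2.72 to 13.3%) and 0.336% of enterocyte-like cells. Intervals cover counting error only. The median depth before thinning was 11556, 13065, 9994.5 and 3871.5 UMIs in these 4 classes.

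Insm1, Nkx2-2 and Rfx6 were present in all 3 clusters. Insm1 averaged 1399 ± 104 CPM in the Ghrl/Neurog3 cluster (SD, n = 6 libraries), 760 ± 94.6 in the Tph1/Tac1 cluster and 622 ± 116 in the Gcg/Cck cluster, and only the last 2 overlapped between libraries. Nkx2-2 followed the same order with 495 ± 146, 333 ± 38.0 and 215 ± 36.6, and the Ghrl/Neurog3 and Tph1/Tac1 values overlapped. For Rfx6 the 3 clusters could not be ordered, as they averaged 402 ± 78.5, 443 ± 72.4 and 522 ± 111 and overlapped. Rfx6 was also detected in nearly equal shares of cells, 64.0%, 58.0% and 59.0%.

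Isl1 divided the EE-like clusters, and Fev differed between them less sharply. Isl1 stood at 1014, 585 and 757 CPM in the Gcg/Cck cluster of the Fpr2f/f libraries and at 1319, 1131 and 1727 in that of the Fpr2VKO libraries. In the Tph1/Tac1 cluster it was 41.5, 0, 3.24, 4.5, 0 and 3.49 in the 6 libraries, so all 6 were far below the Gcg/Cck values. At equal depth 81.9% of the Gcg/Cck cells had an Isl1 UMI (73.2 to 88.7%), compared with 1.81% of the Tph1/Tac1 cells (0.591 to 4.18%) and 42.0% of the Ghrl/Neurog3 cells. Fev was high in the Tph1/Tac1 cluster in each library, with 396, 407 and 354 CPM in Fpr2f/f and 340, 359 and 362 in Fpr2VKO replicates. It reached 118 to 281 in the Gcg/Cck cluster and 15.1 to 137 in the Ghrl/Neurog3 cluster, the lowest Tph1/Tac1 value being above both ranges. Fev was thus not limited to the Tph1 cells. At equal depth 157 of the 276 Tph1/Tac1 cells and 47 of the 105 Gcg/Cck cells (44.8%) had a UMI.

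Pax6, which acts in late EE differentiation, was highest in the Gcg/Cck cluster, with 399 to 853 CPM in the 6 libraries against 69.9 to 137 in the Tph1/Tac1 cluster. In the Ghrl/Neurog3 cluster it was detected in 8.67% of cells, compared with 68.6% and 29.3% in the Gcg/Cck and Tph1/Tac1 clusters. Its level there was 0 to 169 CPM, which overlapped with the Tph1/Tac1 cluster. Pax4 was sparse, with 17.3%, 15.2% and 4.76% of cells in the Ghrl/Neurog3, Tph1/Tac1 and Gcg/Cck clusters. Its mean levels of 84.0, 61.6 and 25.9 CPM overlapped between neighbouring clusters. As the clusters came from the same cells, none of these differences between clusters was tested.

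The factors were then examined together in single cells. Of the 17104 cells, 12287 reached 3000 UMIs and were thinned to that number, and 4817 shallower cells were left out (353 to 1307 per library). At this depth 739 cells (6.01%) had a UMI of at least 1 factor and 480 of these (65.0%) of at least 2, while 269 cells had 4 or more and 1 cell had all 8. Without thinning, 1509 of 17104 cells had at least 1 factor (8.82%) and 620 of them (41.1%) had 2 or more. The Tph1/Tac1, Gcg/Cck and Ghrl/Neurog3 clusters together held 68.6% of the cells with at least 1 factor and 97.9% of those with 2 or more. Outside them 232 of 11756 cells had a factor, 10 of which had more than 1. Cells of other classes that had a factor thus seldom had more than 1.

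**Figure D2:**
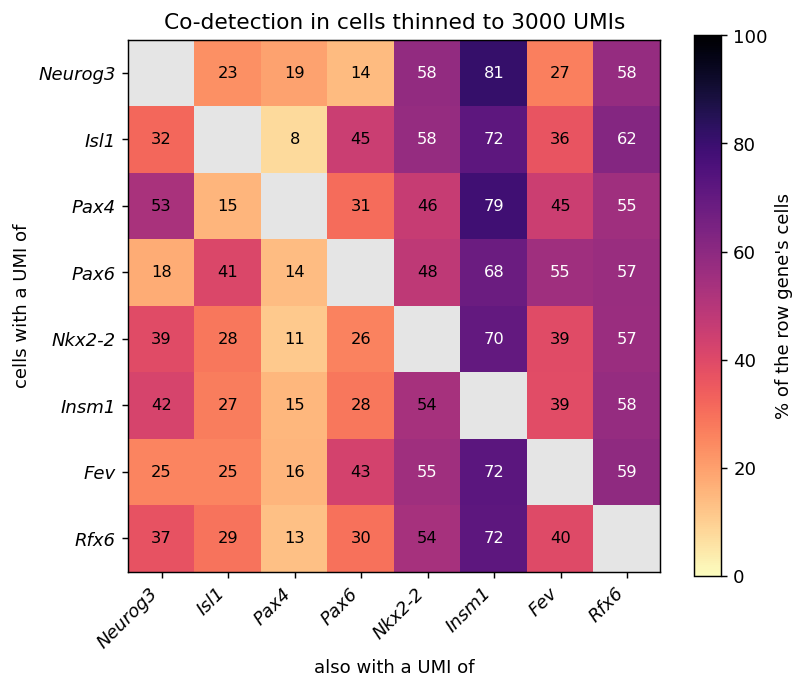
Co-detection of the 8 measured transcription factors in 12287 cells thinned to 3000 UMIs. Each square gives the percentage of cells with the row gene that also had a UMI of the column gene. Insm1 was found in 68 to 81% of the cells of Neurog3, Isl1, Pax4, Pax6, Nkx2-2, Fev and Rfx6, and the lowest value is the share of Isl1 cells with Pax4 (7.65%).

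The strength of each of the 28 pairs was described by phi, the correlation of detection (0 or 1) over the 12287 cells, which ranged from 0.0994 to 0.631 with a median of 0.405. Cells of 1 library share its depth and free RNA, and no p is given. Insm1 and Rfx6 had the highest phi, with 260 cells that had both, and phi was 0.559 to 0.695 within the 6 libraries. Nkx2-2 and Insm1 followed (0.601, 242 cells), and then Neurog3 and Insm1 (0.573, 189 cells). Insm1 was present in 81.1% of the Neurog3 cells (66.7 to 91.1% by library). The lowest phi belonged to Isl1 and Pax4 (0.0994, 13 cells) and to Neurog3 and Pax6 (0.143, 33 cells). The order of the pairs moved with depth. Thinned to 1000 UMIs, Neurog3 and Insm1 came first (0.463) and Insm1 and Rfx6 had 0.364, whereas without thinning Insm1 and Rfx6 had 0.649, Nkx2-2 and Rfx6 0.646, Pax6 and Fev 0.608 and Neurog3 and Insm1 0.469. Thinned to 1000 UMIs, Isl1 and Pax4 and Neurog3 and Pax6 shared 2 and 8 cells with phi of 0.0226 and 0.0537, whereas without thinning phi was 0.197 and 0.220.

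The genes of the Notch and secretory fate list differed in direction in Neurog3 cells. Among 233 cells with a Neurog3 UMI at equal depth, 72.1% had Sox4, a progenitor factor, against 13.6% of all cells. Hes6 was present in 33.9% against 8.55% and the Notch ligand gene Dll1 in 23.2% against 7.46%. The Notch effector Hes1 went the other way, with 13.3% against 38.1%, as did the proliferation gene Mki67, with 9.87% against 26.9%. Atoh1, which drives all secretory lineages, was found in 2.58% of the Neurog3 cells and in 4.54% of all cells, Notch1 in 4.29% against 7.99%, Spdef in 1.29% against 3.57%, Gfi1 in 0% against 0.765% and Pou2f3 in 0.858% against 1.03%. Dll4 (16.7% against 3.32%), Foxa2 (19.3% against 2.00%), Foxa1 (21.9% against 10.9%) and Sox9 (24.0% against 19.2%) were more often present. In all, 54 cells had both Neurog3 and Dll1. Over the 531 thinned cells of the 3 clusters, Hes1 was in 11.1%, Mki67 in 9.42% and Dll4 in 16.6%, so these shares were not particular to Neurog3 cells. Sox4 (51.6%), Hes6 (22.6%), Dll1 (13.4%), Foxa2 (15.6%) and Sox9 (18.5%) were less frequent over these 531 cells than in Neurog3 cells. Foxa1 (28.1%) was more frequent over them than in Neurog3 cells.

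Isl1 separated Neurog3 cells by their companions. Of the 54 cells with Neurog3 and Isl1, 42.6% had Ghrl, the ghrelin gene (0 to 62.5% by library, with 0 of 8 cells in Fpr2f/f replicate 2). Of the 179 cells with Neurog3 but no Isl1 UMI, 2.23% had Ghrl. Tph1 and Lmx1a, a LIM homeodomain factor of serotonergic cells, had the reverse pattern, with 1.85% and 3.70% in the cells with both and 26.3% and 22.3% in the cells without Isl1. The cells with both lay mostly in the Ghrl/Neurog3 cluster (85.2%).

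Fev cells were divided by Isl1 in the same way. In 182 cells with Fev but no Isl1 UMI, 75.8% had Tph1, 79.7% Tac1 (substance P precursor) and 61.5% Lmx1a. In the 62 cells with both Fev and Isl1 these values were 3.23%, 16.1% and 3.23%, and 51.6% had Cck and 30.6% Gcg. By library, Tph1 was found in 7 of 14 (Fpr2f/f replicate 3) to 35 of 43 (81.4%, Fpr2f/f replicate 1) of the Fev cells without Isl1 and in 0 to 5.13% of the Isl1 cells, ranges that did not overlap. Of the 268 cells with Tph1, 138 had Fev without Isl1 and 3 had Isl1. Of the 108 cells with Isl1 but no Fev UMI, 1 had Tph1, so Tph1 was rare in Isl1 cells with or without Fev. Cells of these clusters with neither factor were not examined, so the parts of Isl1 and Fev cannot be told apart.

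**Figure D3:**
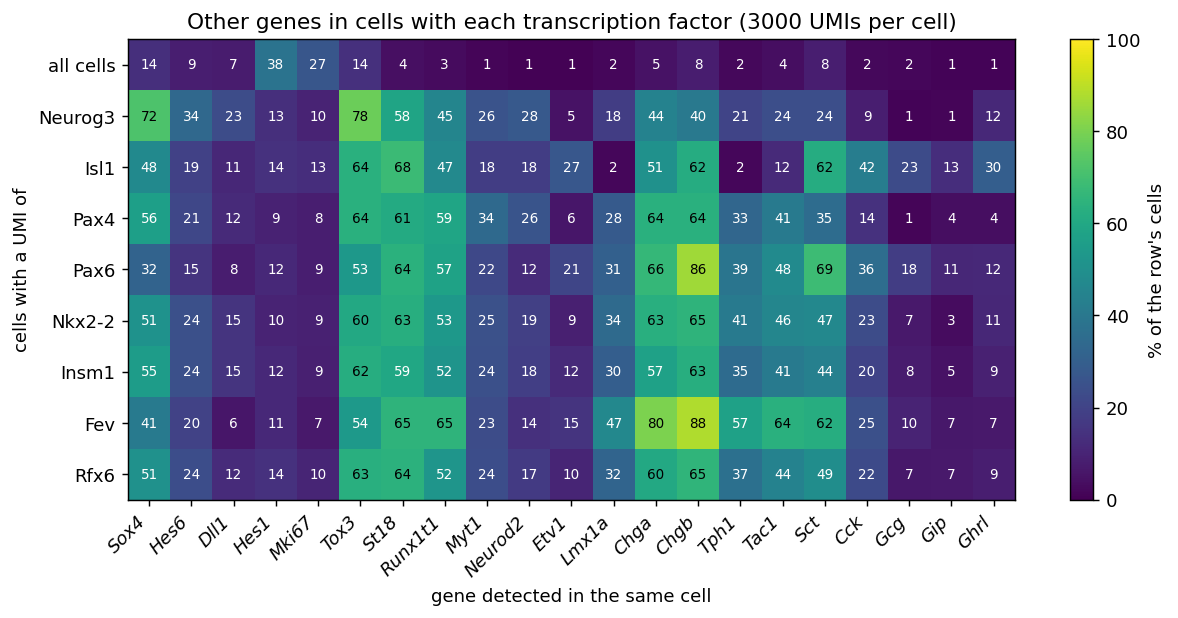
Percentage of cells with a UMI of each transcription factor (rows) that also had a UMI of the gene in the column, at 3000 UMIs per cell, with all 12287 cells in the top row. Sox4 (72%) and Hes6 (34%) were highest in Neurog3 cells, Ghrl (30%) in Isl1 cells, and Tph1 (57%) and Lmx1a (47%) in Fev cells, whereas St18 ran from 58% to 68% over the 8 measured factors.

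Some of the other EE regulators were frequent in the cells of every measured factor, and others were not. St18, a zinc finger factor, was found in 58.4 to 68.2% of the cells of each factor and in 4.24% of all cells, and Runx1t1 in 45.5 to 65.2% against 2.89%. Tox3 (53.2 to 77.7%) and Neurod2 (12.2 to 27.9%) were highest in Neurog3 cells. Lmx1a was in 1.76% of Isl1 cells and 46.7% of Fev cells (1.93% of all cells). Etv1 was in 4.72% of Neurog3 cells and 27.1% of Isl1 cells (0.708% of all cells). Mlxipl was in 32.9 to 42.4% against 28.9% of all cells, and Onecut3 and Hhex were in at most 4.79% and 4.12%. Hormone and granule transcripts of a list of 21 genes summed to 44.1 UMIs per cell (of 3000) in Neurog3 cells and to 162 in Fev cells, compared with 6.27 in all cells. Over the 531 thinned cells of the 3 clusters this sum was 132, so it was lower in Neurog3 cells. In those 531 cells St18 (63.3%), Runx1t1 (54.2%), Tox3 (61.6%) and Neurod2 (16.6%) lay within the ranges above. Lmx1a was in 36.7% of them and Etv1 in 13.4%.

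Among 14522 genes detected in at least 30 thinned cells, and with the members themselves left out, the genes whose detection was most like that of each factor overlapped between factors. Kcnb2, a potassium channel gene, had the highest phi of these with Neurog3 (0.494), Pax4 (0.290), Nkx2-2 (0.603), Insm1 (0.676) and Rfx6 (0.617), and Rimbp2, which encodes a presynaptic scaffold protein, was among the top 3 for all of these. Kcnb2 also had a phi of 0.536 with Fev, 0.447 with Pax6 and 0.421 with Isl1. Cpe, which encodes the prohormone-processing carboxypeptidase E, and Hmgn3 were the top genes of Pax6 (0.526 and 0.508) and Fev (0.588 and 0.602). Isl1 was most like Scgn (secretagogin, 0.664), with Cxxc4 (0.474) also among its top genes, and 100 of the 170 Isl1 cells had Scgn. The remaining genes of the top 3 were Epb42 for Neurog3 (0.451, ranked above Rimbp2), Pcsk1 for Pax4 (0.285), Fam183b for Pax6 (0.463), Cacna2d1 for Nkx2-2 (0.563) and Insm1 (0.617, ranked above Rimbp2), Scn3a for Fev (0.557) and Hmgn3 for Rfx6 (0.574).

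The genotypes were compared first on UMIs summed over all kept cells of a library. No factor differed between Fpr2VKO and Fpr2f/f libraries by edgeR's quasi-likelihood test with Benjamini-Hochberg adjustment over 16917 genes (adjusted p = 0.806 to 0.997), and in none of the 8 did the groups separate. Over all genes 0.0177% were called (3 genes, all higher in Fpr2VKO), 8.45% had an unadjusted p below 0.05 and none of the 8 factors did, and the groups did not overlap for 13.1% (3.4% higher and 9.73% lower in Fpr2VKO). The median log2 fold change of the 8 factors was -0.04. DESeq2 called 95 genes (0.562%) and no factor. In sums of all cells, fewer EE cells and less RNA per cell cannot be told apart.

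Neurog3 stood at 24.2, 20.8 and 20.5 CPM in the Fpr2f/f libraries and at 34.4, 9.49 and 14.2 in the Fpr2VKO libraries. Fpr2VKO replicate 1 was the highest of the 6 and the rest of the Fpr2VKO libraries were the lowest (log2 fold change, Fpr2VKO against Fpr2f/f, -0.15 ± 0.46 SE). Without Fpr2VKO replicate 1 it was -0.81 ± 0.17 (unadjusted p = 0.00056, adjusted p = 0.309 by edgeR). Insm1 was 53.6, 24.8 and 26.0 against 58.0, 22.3 and 30.7, with replicate 1 of each genotype above the rest (0.14 ± 0.44). Isl1 was 29.4, 5.35 and 14.2 against 17.3, 15.8 and 14.0, and the Fpr2VKO values lay within the wider range of the controls (0.04 ± 0.58). The largest estimate was that of Pax4, 4.07, 2.69 and 1.90 against 3.60, 1.47 and 1.00, and it was within the spread (-0.46 ± 0.45). Without Fpr2VKO replicate 1 the Pax4 value was -1.10 ± 0.35 (unadjusted p = 0.00888, adjusted p = 0.591 by edgeR), and without Fpr2VKO replicate 3 it was -0.16. Pax6, Nkx2-2, Fev and Rfx6 had estimates of 0.0034, -0.07, -0.28 and -0.01. Leaving out Fpr2f/f replicate 3 moved Fev to -0.60 ± 0.17 (unadjusted p = 0.00439, adjusted p = 0.532 by edgeR), and leaving out Fpr2f/f replicate 1 moved Pax6 to 0.43 ± 0.14 (unadjusted p = 0.0123, adjusted p = 0.161 by edgeR).

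**Figure D4:**
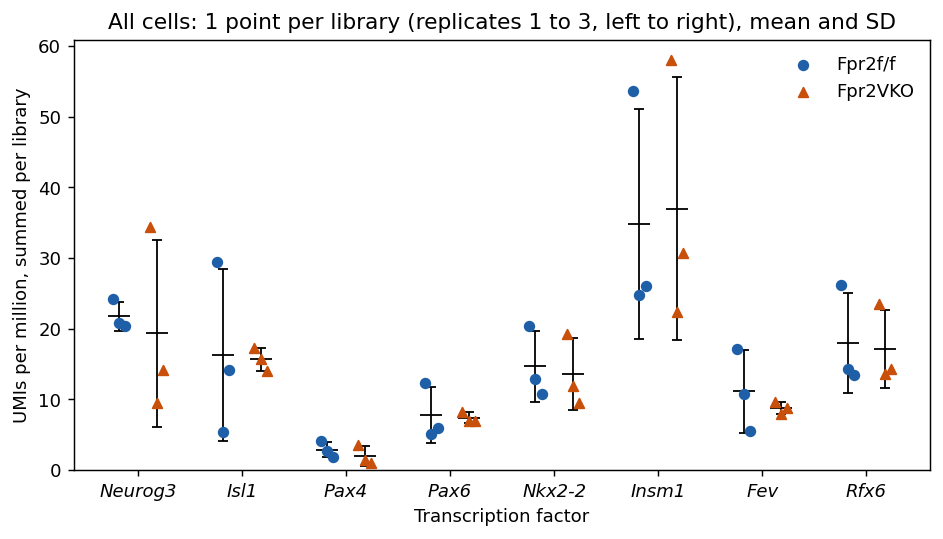
CPM of the 8 measured transcription factors in all kept cells, with 1 point per library (Fpr2f/f circles, Fpr2VKO triangles) and the mean with SD. The genotypes overlap for each gene, and Fpr2f/f replicate 1 has the highest value of the 6 libraries for Isl1, Pax4, Pax6, Nkx2-2, Fev and Rfx6.

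Fpr2f/f replicate 1 set much of the control level. Without it, the log2 fold changes of Isl1, Pax6, Insm1, Fev and Rfx6 were 0.73, 0.43, 0.53, 0.10 and 0.30, and 40 genes were called over all genes in place of 3, none of them a factor. Pax4 stayed lower in Fpr2VKO without it, as without each other library (-1.10 to -0.16). Some marker sums of other cells did not overlap between genotypes, as was so for 13.1% of all genes. The 6 stem markers together were 895 to 1238 CPM in Fpr2f/f and 2048 to 2220 in Fpr2VKO libraries. The 6 secretory progenitor markers were barely apart, at 155 to 160.8 and 161.3 to 205, and neither sum was tested. The 12 EE markers overlapped (866 to 2306 and 1296 to 1871). The part of these in the factors' values was not tested.

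EE-like cells were then summed by themselves, with 41 to 109 cells per library. These sums leave out the Ghrl/Neurog3 cluster, which held 64.9% of the Neurog3 UMIs of kept cells. It also held 41.8% of those of Isl1, 41.2% of Insm1, 35.5% of Pax4, 35.2% of Nkx2-2 and 23.8% of Rfx6. For Pax6 and Fev it held 6.37% and 5.54%. No factor passed the test over 9438 genes (adjusted p = 0.999 for all 8). A single gene, Gm29051, was called (0.0106%, higher in Fpr2VKO), and 3.54% of genes had an unadjusted p below 0.05. DESeq2 called 3 genes (0.0318%) and no factor.

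Isl1 was the only factor whose genotype groups did not overlap in EE-like cells, which was so for 8.55% of all genes tested and, in the direction of a higher Fpr2VKO level, for 3.8% (4.75% in the other direction). It stood at 295, 118 and 311 CPM in the Fpr2f/f libraries and at 365, 441 and 427 in the Fpr2VKO libraries. All 3 Fpr2VKO libraries were above all 3 controls, of which replicate 2 was far below the others. The log2 fold change was 0.81 ± 0.32 (SE) with an unadjusted p of 0.0348 and an adjusted p of 0.999 by edgeR over all genes. Without Fpr2f/f replicate 2 it was 0.47. Without the filter on low counts its adjusted p was 0.0132, the only one of 18 settings in which it passed, and over the settings it ranged from 0.0132 to 1.00.

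Values that bear on Isl1 are given beside it. The Gcg/Cck cells held 1811 of the Isl1 UMIs of the EE-like cells and the Tph1/Tac1 cells 43. The Gcg/Cck cells made up 22.2, 28.4 and 43.9% of the EE-like cells in the control libraries and 27.5, 39.1 and 28.9% in the knockout ones, which overlapped. Within these cells alone the genotypes did not overlap either (585 to 1014 against 1131 to 1727 CPM), which was also so for Pax6 (399 to 556 against 579 to 853) and Insm1 (444 to 618 against 635 to 770). Only 15 to 31 cells per library were available and no test was made. The share of all genes without overlap in these cells was not obtained, so nothing can be read from the separation of these members. In the Ghrl/Neurog3 cells Isl1 overlapped, with 944, 334 and 1057 against 267, 1105 and 419, and with these cells included, as also happened at the lower cluster resolution, the log2 fold change was 0.15. Tuft markers (8 genes) were also higher in the EE-like cells of Fpr2VKO libraries (626 to 711 against 361 to 559), with Gfi1b at 0, and goblet markers (7 genes) were highest in Fpr2f/f replicate 2, 6689 against 374 to 3084 in the others. Their part in the result was not tested.

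The groups overlapped for the other factors in EE-like cells. Rfx6 stood at 412, 426 and 495 against 471, 478 and 460 (0.10 ± 0.15), and Nkx2-2 at 274, 349 and 296 against 303, 315 and 261 (-0.05 ± 0.16). Fev (-0.04 ± 0.17), Insm1 (0.20 ± 0.16) and Pax6 (0.31 ± 0.18) had similar standard errors. Neurog3 was the most variable, with 139, 241 and 476 against 286, 170 and 186 (-0.35 ± 0.51), and its value was 0.18 when control replicate 3 was left out and -0.71 when control replicate 1 was. Pax4 had -0.27 ± 0.29. Without Fpr2VKO replicate 1 the Pax4 value was -0.69 (unadjusted p = 0.0388, adjusted p = 0.999 by edgeR), and without Fpr2VKO replicate 3 it was -0.083. The median over the 8 factors was 0.03.

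**Figure D5:**
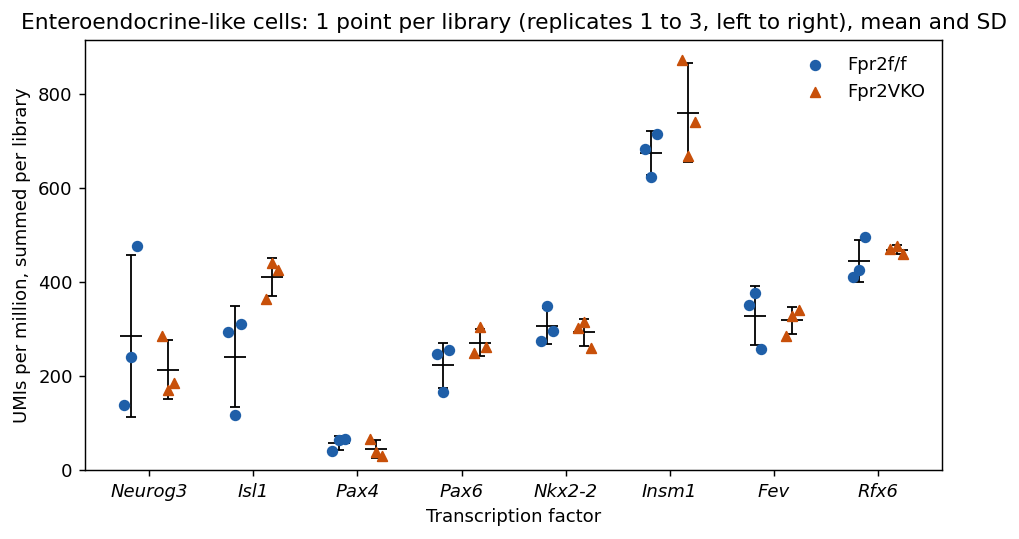
CPM of the 8 transcription factors in enteroendocrine-like cells, with 1 point per library (Fpr2f/f circles, Fpr2VKO triangles) and the mean with SD. Isl1 is the only gene whose groups do not overlap (118 to 311 against 365 to 441), and Neurog3 in Fpr2f/f has the widest spread for its level.

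The share of cells with each factor was compared at equal depth. At least 1 factor was found in 9.88, 4.43 and 4.37% of cells of the Fpr2f/f libraries and in 8.20, 5.46 and 6.45% of the Fpr2VKO libraries. Fpr2f/f replicate 1 was the highest and the remaining controls the lowest. The difference was 0.475 percentage points (exact two-sided permutation test, p = 0.8, adjusted p = 1 over 12 tests), and without Fpr2f/f replicate 1 it was 2.30. Without Fpr2VKO replicate 1 it was -0.275. A comparison of 3 with 3 libraries cannot give a p below 0.1.

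Cells with 2 or more factors made up 8.01, 2.59 and 2.67% against 5.07, 3.77 and 3.69% (exact p = 1). As a share of factor-positive cells they were 81.1, 58.4 and 61.1% against 61.8, 69.1 and 57.3% (exact p = 0.7). EE-like cells were 4.09, 2.31 and 1.45% of all kept cells in the controls against 3.04, 2.49 and 2.78% (exact p = 0.8). Leaving out Fpr2f/f replicate 1 turned the differences from -0.246 to 1.55 points for 2 or more factors and from -4.15 to 2.95 points among positive cells, and for EE-like cells the difference went from 0.160 to 0.896 points. The shares with Isl1, Pax4, Pax6, Fev and Rfx6 also turned from lower to higher in Fpr2VKO without it. Without Fpr2VKO replicate 1 the differences were -0.691 points for 2 or more factors, -3.68 among positive cells and 0.0248 for EE-like cells. The 3 shares of this paragraph had a larger SD in the controls than in the Fpr2VKO libraries. The single-factor shares (mean 0.756 to 3.93% in Fpr2f/f and 0.683 to 4.22% in Fpr2VKO) gave exact p from 0.7 to 1.

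Genes around the factors were read from 5 lists. Of 13 other EE regulators, 13 were tested in all cells and 12 in EE-like cells and none was called in either, with median log2 fold changes of -0.07 and -0.01 against medians of 0.0020 and 0.00096 over all genes tested. Of 21 hormone and granule genes, 20 and 19 were tested and none was called (medians -0.14 and 0.05). For Chga, the chromogranin A gene, the levels in all cells were 195, 180 and 55.4 against 153, 82.3 and 62.9, which overlapped. None of 13 Notch and secretory fate genes was called in all cells or among the 9 tested in EE-like cells (medians 0.19 and 0.11), although Foxa2, Sox9 and Dll1 had unadjusted p below 0.05 in all cells. None of 8 proliferation genes was called in all cells or among 6 in EE-like cells (medians 0.06 and 0.13). Of 5 stem genes, Olfm4 rose in all cells (1.15 ± 0.14, adjusted p = 0.0274 by edgeR) and all 5 had unadjusted p below 0.05 (median 1.04), whereas none of the 4 tested in EE-like cells was called (median 0.53).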

How the data were processed

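Single-cell RNA sequencing of EpCAM-sorted ileal crypt cells gave 6 libraries, 3 Fpr2f/f and 3 Fpr2VKO, grouped by their labels. The authors aligned reads to mm10 with MobiVision (version 2.1) and deposited raw UMI counts per gene and barcode. The annotation they used was not given in the sources used here, and their Seurat (version 4.0.0) steps came after these files. The members and gene lists were chosen with earlier results of these data known. Named genes were the 9 members, Fpr2, 5 lists (Notch and secretory fate, other EE regulators, hormones and granule genes, proliferation, stem) and the 3 genes of highest phi with each member, of which 1 gene is not reported here. Cells were log-normalized, libraries aligned by mutual nearest neighbours, clustered (Leiden, resolution 1) without the members, and named from marker lists. Doublets were not removed in the values reported, and removal of the highest-scoring cells (28 to 178 per library) was an alternative. Counts summed per library were tested with edgeR (version 4.0.16; quasi-likelihood, TMM, filterByExpr, robust), with DESeq2 (version 1.42.0) as an alternative, at an adjusted p of 0.05. Shares were compared by exact two-sided permutation over libraries. Statistical code was tested on simulated data, in which the share of false calls lay above the nominal level in both cell sets. Other alternatives were no low-count filter, a replicate block, leaving out each library, other mitochondrial, UMI and thinning limits, clusterings without alignment or at other resolutions, and leaving out immune-like cells. Adding the Ghrl/Neurog3 cluster to the EE-like sums was chosen after seeing the data. Gene positions came from GENCODE M21 (GRCm38) and promoter sequences from RefSeq.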

Additional observations from a re-analysis of the deposited data

Results flagged for a closer look

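Data outside the comparisons also held the factors. Barcodes of under 100 UMIs carried 4677 UMIs of the 8 measured genes over the 6 libraries, from 595 in Fpr2f/f replicate 3 to 1143 in Fpr2VKO replicate 1. Of 39681 barcodes with 20 to 40% mitochondrial UMIs, 2562 (6.46%) had a UMI of at least 1 factor, compared with 8.82% of kept cells at their own depth, and Insm1 was in 813 of them, Rfx6 in 512, Neurog3 in 431 and Neurod1 in 0. Groups of 3 libraries were not tested for outlying samples.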

How the results depend on the processing

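No factor changed its call between genotypes under any alternative, except Isl1 in EE-like cells (log2 fold change 0.82, adjusted p = 0.0132 by edgeR) with no filter on low counts. Over the settings that kept this filter or concerned all cells, the factors' adjusted p ranged from 0.161 to 1.00 in all cells and from 0.996 to 1.00 in EE-like cells, and with no filter the lowest for the other factors in EE-like cells was 0.845. Directions were less stable, and the cause was not tested. Of 248 alternative log2 fold changes 30 reversed, and of 133 alternative shares 42.

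The 3 genes called in all cells became 95 with DESeq2, 89 with no filter, 26 at a mitochondrial limit of 10%, 1 at a UMI minimum of 2000 and 1 to 40 without each library in turn (40 without Fpr2f/f replicate 1). The 1 gene called in EE-like cells became 3 with DESeq2, 16 with no filter, 5 with the replicate block, 0 at the 10% limit (which left Fpr2VKO replicate 3 out for too few cells), 2 at resolution 0.5 and, in an alternative chosen after seeing the data, 2 with the Ghrl/Neurog3 cluster, and 0 to 5 without each library (5 without Fpr2f/f replicate 3 and 0 without each Fpr2VKO replicate). In all cells, log2 fold changes reversed at the 10% limit for Nkx2-2 (0.15), Fev (0.014) and Rfx6 (0.37), at the 40% limit for Isl1 (-0.027) and Pax6 (-0.050), and for Pax6 with DESeq2 (-0.0040) and at 2000 UMIs (-0.011).

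Share differences (percentage points) reversed with no thinning for Isl1 (0.585), Pax4 (0.280), Pax6 (0.265), Fev (0.644), Rfx6 (0.814) and 2 or more factors (0.678). Thinned to 1000 UMIs they reversed for Isl1 (0.185), Pax4 (0.114), Fev (0.187), Rfx6 (0.0468) and 2 or more factors (0.323). At the 10% limit they reversed for Neurog3 (-0.603), Isl1 (0.230), Insm1 (-0.0819), any factor (-1.27) and 2 or more factors among positive cells (7.79). At the 40% limit they reversed for Isl1 (0.0338) and EE-like cells (-0.377), and with doublets removed for Isl1 (0.0361).

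Leaving out each library in turn gave log2 fold changes in all cells of Neurog3 -0.81 to 0.15, Isl1 -0.38 to 0.73, Pax4 -1.10 to -0.16, Pax6 -0.21 to 0.43, Nkx2-2 -0.36 to 0.18, Insm1 -0.29 to 0.53, Fev -0.60 to 0.10, Rfx6 -0.26 to 0.30, and in EE-like cells of Neurog3 -0.71 to 0.18, Pax4 -0.69 to -0.083, Nkx2-2 -0.14 to 0.073, Fev -0.19 to 0.084. In EE-like cells Isl1 (0.47 to 1.01), Pax6 (0.14 to 0.41), Insm1 (0.069 to 0.30) and Rfx6 (0.030 to 0.17) did not reverse, nor did Pax4. Share differences, whose highest values all came without Fpr2f/f replicate 1, then ran as Neurog3 -0.269 to 0.81, Isl1 -0.472 to 0.628, Pax4 -0.306 to 0.148, Pax6 -0.445 to 0.505, Nkx2-2 -0.376 to 1.3, Insm1 -0.566 to 1.92, Fev -0.778 to 0.722, Rfx6 -0.861 to 0.886, any factor -0.454 to 2.3, 2 or more -1.16 to 1.55, 2 or more of positive cells -8.36 to 2.95, EE-like cells -0.424 to 0.896.

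Over all genes, the deviations of same-numbered libraries correlated weakly (-0.0968, -0.0489 and 0.200 in all cells and -0.0203, 0.0794 and 0.272 in EE-like cells). In the factors' sums over all cells, however, replicate 1 was the highest library of both genotypes for each of the 8 factors. Whether the numbers pair the libraries was therefore not settled. With the replicate block 3 genes were called in all cells and 5 in EE-like cells, no factor among them (Isl1 in EE-like cells 0.89, adjusted p = 0.996 by edgeR).

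With 3 libraries per group, 41 to 109 EE-like cells per library, the power to detect small changes was not tested, and Neurod1 could not be measured.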
